A study of Mus musculus with 9 samples.

Results

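The genes described here carry the interleukin-1 (IL-1) and Toll-like receptor signal from ligand to inflammasome: *Il1b*, *Il1r1*, *Il1rap*, *Tlr2*, *Tlr4*, *Myd88*, *Irak4*, *Irak1*, *Traf6* and *Nlrp3*. They were taken by gene symbol from a fixed list, and a gene that a library did not list was given 0 counts. All 10 had a count in at least 1 library, out of 26602 genes with a count in the series. They were measured in the midbrain of mice with and without DJ-1, the product of *Park7*, to ask how transcription in this region differs when the protein is missing.

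IL-1β is released by myeloid cells after the inflammasome, of which NLRP3 is a sensor, has activated the protease that cuts its precursor. IL-1 receptors and Toll-like receptors share an intracellular TIR domain and with it one signalling chain, in which the adaptor MYD88 gathers the kinases IRAK4 and IRAK1, and the ubiquitin ligase TRAF6 passes the signal on to NF-κB. In the brain, Toll-like receptors that sense microbial and damage-related molecules are known mainly from microglia, whereas IL-1 receptor type 1 is best known from endothelial cells and some neurons.

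The groups were 4 DJ-1+/+ mice (labelled WT) and 5 DJ-1-/- mice (labelled DJ-1 KO), all 3 to 4 months old, with a separate animal behind every library. The mutant line had been backcrossed to C57BL/6, and littermates from heterozygous parents were used and kept together in cages. Tissue was midbrain that included the substantia nigra pars compacta, so each value is an average over all cells of the piece, and fewer cells of a type cannot be told apart from less RNA per cell. Transcripts were counted with QuantSeq, which tags each molecule near its 3′ end with a unique molecular identifier (UMI). A transcript thus yields 1 tag whatever its length, and levels can be set side by side between genes as UMI counts per 1000000 of the library (cpm).

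Library totals were 841974, 879901, 859549 and 886085 UMI counts for DJ-1+/+ replicates 1 to 4. They were 999042, 1098125, 969376, 967751 and 1026201 for DJ-1-/- replicates 1 to 5. Every DJ-1-/- library was deeper than every DJ-1+/+ library, so the counts were also thinned to 841974 in each library. A level of 3 counts in a library was taken as the floor, which equals between 2.73 and 3.56 cpm and covers counting error only. The p-values below set the difference between genotypes against the variation between animals.

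The labels were checked with *Park7* (chromosome 4, 150897133 to 150914437, minus strand, GRCm38). It had 132, 105, 113 and 118 counts in DJ-1+/+ and 23, 29, 14, 19 and 19 counts in DJ-1-/- mice, with no overlap between the genotypes. Its log2 fold change was −2.71 (standard error 0.15), and its adjusted p was 7.39e-08 (edgeR's quasi-likelihood test, Benjamini-Hochberg adjustment over the 18127 genes with at least 10 counts in the 9 libraries together).

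Some libraries stood apart from others of their genotype. Counts of *Xist*, which is transcribed from an inactive X chromosome, were between 146 and 193 in 6 libraries. The others were DJ-1+/+ replicate 1 with 0 counts, replicate 4 of the same genotype with 1, and DJ-1-/- replicate 5 with 2. The sex of the animals is not given in the labels.

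Markers of neighbouring tissue were uneven as well. The summed level of 14 choroid plexus markers was 692, 399, 419 and 1384 cpm in DJ-1+/+ and 438, 537, 484, 411 and 476 cpm in DJ-1-/- mice. All 14 were lower in DJ-1-/- mice, the most abundant was *Enpp2* at 244 cpm, and DJ-1+/+ replicate 4 held the highest sum. DJ-1+/+ replicate 2, at 399 cpm, was below every DJ-1-/- mouse, and DJ-1+/+ replicate 3, at 419 cpm, below all but DJ-1-/- replicate 4. The sum over 10 cerebellar neuron markers, led by *Zic1* at 171 cpm, was 1521, 667, 519 and 736 cpm in DJ-1+/+ and 559, 591, 661, 638 and 727 cpm in DJ-1-/- mice. It was highest in DJ-1+/+ replicate 1, and all 10 markers were lower in DJ-1-/- mice. The other DJ-1+/+ sums, between 519 and 736 cpm, spanned the DJ-1-/- sums.

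The sum over 10 markers of dopaminergic neurons was 790, 1040, 643 and 558 cpm in DJ-1+/+ and 906, 992, 935, 1089 and 815 cpm in DJ-1-/- mice. All 10, led by *Aldh1a1* at 151 cpm, were higher in DJ-1-/- mice, although the sums overlapped. In edgeR's test 8 of the 14 choroid plexus, 5 of the 10 cerebellar and 4 of the 10 dopaminergic markers had an unadjusted p under 0.05, against 2.83% of all genes tested, and tissue composition and genotype cannot be told apart in these lists. *Th*, another of the 10 dopaminergic markers, was picked outside the naming rule. It averaged 64.3 cpm over the DJ-1+/+ mice and 98.3 cpm over the DJ-1-/- mice. Only these means are given, and they do not show whether the genotypes overlapped. No marker of any list given here was at 0 over the 9 libraries.

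For the cells in which these receptors are best known, 16 microglia markers summed to 932, 926, 937 and 955 cpm in DJ-1+/+ and to 974.9, 1035, 1009, 874 and 935 cpm in DJ-1-/- mice. The DJ-1-/- sums spanned those of the DJ-1+/+ mice, 12 of the 16 markers were higher in DJ-1-/- mice, and *Ctss* was the most abundant at 134 cpm. The 6 markers of border macrophages, led by *Mrc1* at 13.3 cpm, summed to 27.3, 76.1, 54.7 and 31.6 cpm in DJ-1+/+ and 46.0, 66.5, 58.8, 38.2 and 34.1 cpm in DJ-1-/- mice. The 10 markers of neutrophils and blood monocytes, led by *S100a8* at 5.02 cpm, summed to at most 28.9 cpm in any library. The 10 endothelial markers, led by *Flt1* at 152 cpm, summed to between 650 and 813 cpm in DJ-1+/+ mice, and the DJ-1-/- sums, between 657 and 782 cpm, lay within that range.

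The ligand IL-1β was at the limit of what these libraries can show. *Il1b* (chromosome 2, 129364570 to 129371139, minus strand) had 0, 0, 1 and 0 counts in DJ-1+/+ and 0, 1, 2, 0 and 0 counts in DJ-1-/- mice. Every library was under the floor of 3 counts, the gene did not pass the filter of 10 counts over the 9 libraries, and no fold change is given. *Il1bos* overlaps it on the other strand. A difference in *Il1b* was not detectable at this depth (exact two-sided permutation test of the cpm, p = 0.873), and its sign rested on DJ-1-/- replicate 3. The mean difference, DJ-1-/- minus DJ-1+/+, was 0.30 cpm with that library and −0.06 cpm without it.

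*Il1r1* encodes the receptor that binds IL-1 and signals (chromosome 1, 40225080 to 40317257, plus strand). It stood at 15.4, 12.5, 9.31 and 7.90 cpm in DJ-1+/+ and at 14.0, 12.7, 11.3, 6.20 and 6.82 cpm in DJ-1-/- mice. Both genotypes held high and low mice and the ranges overlapped almost completely. This gave a log2 fold change of −0.13 (standard error 0.34, 95% interval −0.86 to 0.59), and with single libraries left out it ran from −0.27 without DJ-1+/+ replicate 4 to 0.05 without DJ-1+/+ replicate 1. Counts were between 6 and 14 per library, and the spread over the 9 libraries, a coefficient of variation of 30.7%, was no larger than the 31.4% that counting alone gives. *Gm38070* is annotated over part of *Il1r1* on the same strand, and tags from the shared stretch cannot be told apart.

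*Il1rap* encodes the accessory chain that the IL-1 receptor needs to signal (chromosome 16, 26581704 to 26730117, plus strand). Its level was 67.7, 37.5, 59.3 and 71.1 cpm in DJ-1+/+ and 56.1, 47.4, 56.7, 51.7 and 74.1 cpm in DJ-1-/- mice. The 3 highest libraries, the first and the fourth DJ-1+/+ mouse and DJ-1-/- replicate 5, were those with under 10 *Xist* counts, an observation made after the values were seen. They lay between 67.7 and 74.1 cpm, whereas the other 6 lay between 37.5 and 59.3 cpm, with both genotypes on each side. *Gm20319* overlaps *Il1rap* on the other strand. Over the 9 libraries the coefficient of variation was 20.3%, against 13.5% from counting alone.

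Between genotypes the mean level of *Il1rap* was 58.9 ± 15.1 cpm over the DJ-1+/+ mice (SD, n = 4) against 57.2 ± 10.2 cpm over the DJ-1-/- mice (SD, n = 5), a difference smaller than either SD. The log2 fold change was −0.04 (standard error 0.18, 95% interval −0.43 to 0.35). The sign was not stable: the value was 0.03 without DJ-1+/+ replicate 1, 0.06 without DJ-1+/+ replicate 4 and 0.02 without DJ-1-/- replicate 2. Among libraries with at least 10 *Xist* counts it was 0.13.

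Of the Toll-like receptors, *Tlr2* (chromosome 3, 83836272 to 83841767, minus strand), which senses bacterial lipoproteins, had 2, 6, 2 and 0 counts in DJ-1+/+ and 4, 6, 9, 6 and 2 counts in DJ-1-/- mice. Of the 5 DJ-1-/- libraries 4 were above the floor of 3 counts and of the 4 DJ-1+/+ libraries only replicate 2 was, and the ranges overlapped. The DJ-1+/+ mean, 2.88 cpm, was under the mean floor of those libraries, 3.46 cpm. The log2 fold change of 0.86 (standard error 0.64, 95% interval −0.50 to 2.23) did not exceed the spread between animals (unadjusted p = 0.198 in edgeR's test). It turned on single mice, at 1.70 without DJ-1+/+ replicate 2, where the unadjusted p was 0.0361, and at 0.45 without DJ-1+/+ replicate 4. Without both DJ-1+/+ replicates 1 and 4 it was 0.22.

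*Tlr4*, the receptor for lipopolysaccharide (chromosome 4, 66827584 to 66930284, plus strand), had 3, 1, 4 and 2 counts in DJ-1+/+ and 6, 5, 4, 3 and 2 counts in DJ-1-/- mice. Both groups reached below the floor of 3 counts and overlapped, and the DJ-1+/+ mean, 2.90 cpm, was under the mean floor of those libraries, 3.46 cpm. Its log2 fold change was 0.43 (standard error 0.54, 95% interval −0.71 to 1.58). Leaving out DJ-1+/+ replicate 2 gave 0.17, leaving out DJ-1+/+ replicate 3 gave 0.74 and leaving out DJ-1-/- replicate 1 gave 0.24. *Tlr4* lies on the chromosome that also carries *Park7*. The part of the microglia sums given above in the values of either receptor was not tested.

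**Figure D1:**
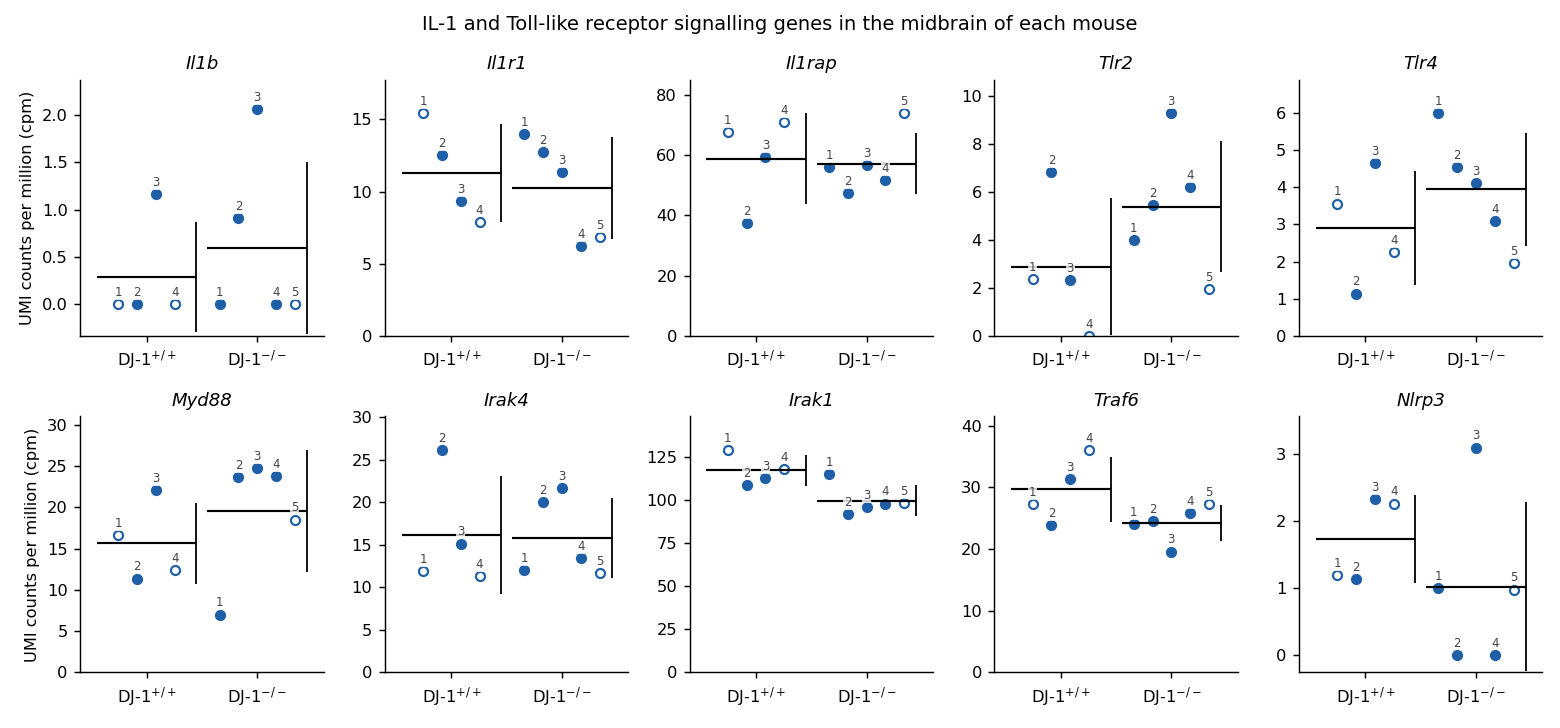
Level of each of the 10 genes in cpm (vertical axis, with its own scale in each panel) in 4 DJ-1+/+ and 5 DJ-1-/- mice. Each point is a mouse with its replicate number, filled where *Xist* had at least 10 counts and open where it had fewer; horizontal lines are means and vertical lines ± 1 SD. The genotypes overlap in every panel, and the open points of *Il1rap* lie above all filled ones.

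*Myd88* encodes the adaptor that nearly all of these receptors use (chromosome 9, 119335934 to 119341411, minus strand). It was expressed at 16.6, 11.4, 22.1 and 12.4 cpm in DJ-1+/+ and at 7.01, 23.7, 24.8, 23.8 and 18.5 cpm in DJ-1-/- mice. The lowest library of all, replicate 1, and the 3 highest were DJ-1-/-, so the DJ-1+/+ mice lay within the DJ-1-/- range. Its log2 fold change was 0.32 (standard error 0.33, 95% interval −0.38 to 1.03, unadjusted p = 0.347 in edgeR's test). Leaving out single libraries moved it both ways, to 0.53 without DJ-1-/- replicate 1 (unadjusted p of 0.0658) or DJ-1+/+ replicate 3 (0.168) and to 0.19 without DJ-1+/+ replicate 2 (0.601). *Slc22a14* on the same strand and *Acaa1a* on the other overlap *Myd88*, and whether strand was used in counting is not stated.

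IRAK4 is the first kinase recruited by MYD88. *Irak4* (chromosome 15, 94543643 to 94581815, plus strand) was at 11.9, 26.1, 15.1 and 11.3 cpm in DJ-1+/+ and at 12.01, 20.03, 21.7, 13.4 and 11.7 cpm in DJ-1-/- mice. The highest and the lowest library were both DJ-1+/+, and the 3 libraries with under 10 *Xist* counts were the lowest, between 11.3 and 11.9 cpm, as was also seen only after the values were known. The log2 fold change was −0.03 (standard error 0.31). Its sign changed when single libraries were left out, to 0.30 without DJ-1+/+ replicate 2 and to 0.05, 0.01 and 0.05 without DJ-1-/- replicates 1, 4 and 5. *Irak4* overlaps *Twf1* on the other strand.

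*Irak1*, which encodes the kinase that IRAK4 activates, lies on chromosome X from 74013914 to 74023918 on the minus strand, where the microRNA genes *Mir5132* and *Mir718* overlap it on the same strand. It was the most abundant of the 10, at 129, 109, 113 and 118 cpm in DJ-1+/+ and 115, 92.0, 95.9, 98.2 and 98.4 cpm in DJ-1-/- mice. DJ-1-/- replicates 2 to 5 lay below every DJ-1+/+ mouse, and replicate 1 lay among them, so the genotypes overlapped. The means were 117 ± 8.87 cpm (SD, n = 4) and 99.9 ± 8.87 cpm (SD, n = 5), a difference larger than either SD (exact two-sided permutation test, p = 0.0476, where 0.0159 is the smallest p that 4 mice against 5 allow).

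The log2 fold change of *Irak1* was −0.23 (standard error 0.09, 95% interval −0.43 to −0.04). Its unadjusted p in edgeR's quasi-likelihood test was 0.020, and its adjusted p over all genes tested was 1.0. In edgeR's test without DJ-1+/+ replicate 1 the log2 fold change was −0.18 and the unadjusted p 0.0814. Without DJ-1-/- replicate 2 they were −0.20 and 0.0516, and without DJ-1-/- replicate 1, the highest of its genotype, −0.29 and 0.00509. DESeq2 gave −0.24 with an unadjusted p of 0.05002, just above the threshold. With thinned counts edgeR gave −0.23 and an unadjusted p of 0.0248, and with both DJ-1+/+ replicates 1 and 4 left out it gave −0.15 and 0.221. These libraries held the highest cerebellar and the highest choroid plexus sum, respectively, whose part in the *Irak1* values was not tested.

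*Irak1* was also compared within libraries alike in *Xist*. With at least 10 *Xist* counts, the mean was 111 cpm in 2 DJ-1+/+ mice, between 109 and 113, and 100.3 cpm in 4 DJ-1-/- mice, between 92.0 and 115, so the ranges overlapped. In that subset the log2 fold change was −0.15 with an unadjusted p of 0.237 in edgeR's test, and with *Xist* as a covariate over all libraries it was −0.20 with a p of 0.0586. With under 10 *Xist* counts, the 2 DJ-1+/+ mice were at 129 and 118 cpm and the 1 DJ-1-/- mouse at 98.4 cpm. The difference thus had the same direction on both sides. With 1 DJ-1-/- mouse on the side with fewer *Xist* counts, its size could not be compared between the sides.

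*Traf6*, the ubiquitin ligase downstream of the IRAK kinases (chromosome 2, 101678429 to 101701669, plus strand), was at 27.3, 23.9, 31.4 and 36.1 cpm in DJ-1+/+ and 24.0, 24.6, 19.6, 25.8 and 27.3 cpm in DJ-1-/- mice. The 2 highest libraries were DJ-1+/+ and the lowest was DJ-1-/- replicate 3, with overlap between 23.9 and 27.3 cpm. Its log2 fold change was −0.29 (standard error 0.20, 95% interval −0.71 to 0.13, unadjusted p = 0.162 in edgeR's test). It kept its sign in every alternative, between −0.39 without DJ-1+/+ replicate 2 and −0.18 without DJ-1+/+ replicate 4.

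The inflammasome sensor gene *Nlrp3* (chromosome 11, 59541568 to 59566956, plus strand) had 1, 1, 2 and 2 counts in DJ-1+/+ and 1, 0, 3, 0 and 1 counts in DJ-1-/- mice. No library was above the floor, so no fold change is given although the gene passed the filter with 11 counts in all. A difference was not detectable at this depth (exact two-sided permutation test of the cpm, p = 0.302). Without DJ-1-/- replicate 3 the p was 0.0286, but 1 count occurred in both genotypes there and was a lower cpm in the deeper DJ-1-/- libraries. With each other library left out it was between 0.286 and 0.514.

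Read together, 9 of the 10 genes passed the filter on low counts, *Il1b* being the exception. With edgeR, *Irak1* alone of the 9 had an unadjusted p under 0.05, and it was lower in DJ-1-/- mice. Among all 18127 genes tested, 513 or 2.83% had such a p, with 228 or 1.26% lower and 285 or 1.57% higher in DJ-1-/- mice. No member had an adjusted p under 0.05 in edgeR's or DESeq2's test, where edgeR called 1 gene of the whole table, *Park7*, or 0.00552%. At the unadjusted threshold DESeq2 called 0 of the 9 and 235 or 1.3% of all genes. None of the 9 was free of overlap between genotypes, compared with 226 or 1.25% of all genes tested.

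Of the 8 genes with a library above the floor, the log2 fold change was above 0 for 3 and below 0 for 5, with a median of −0.04, and the median over all genes tested was 0.01. With *Nlrp3*, which lay at or under the floor, the fitted values of the 9 gave 3 and 6, with the same numbers under TMM, RLE and library-total scaling and in DESeq2. A count of 1 in 9 is too small to be read against the background. The 95% intervals show how large a difference each gene leaves room for: as a ratio of DJ-1-/- to DJ-1+/+, from 0.745 to 0.971 for *Irak1* and from 0.741 to 1.27 for *Il1rap*, but from 0.707 to 4.68 for *Tlr2*.

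**Figure D2:**
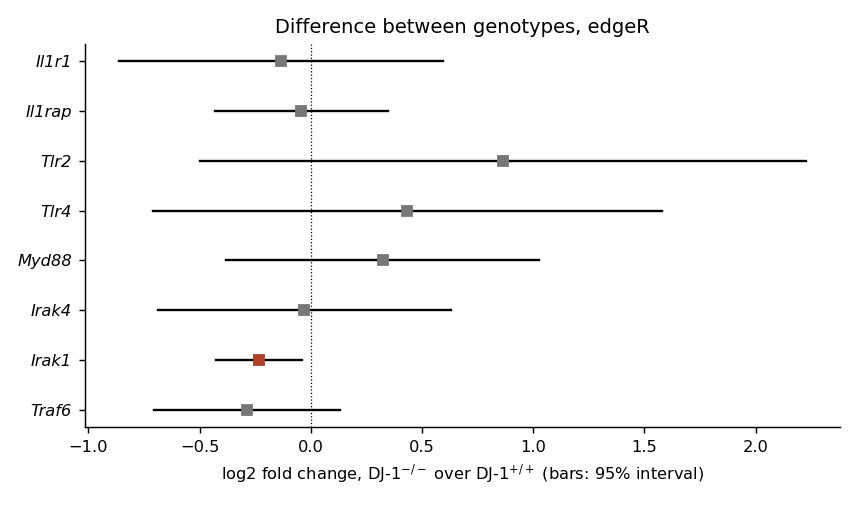
Log2 fold change of DJ-1-/- over DJ-1+/+ mice from edgeR's quasi-likelihood test for the 8 genes with a library above the floor of 3 counts. Squares are estimates and bars 95% intervals; *Irak1*, in red, had an unadjusted p under 0.05. The interval of *Irak1* lies below 0 and those of the other 7 span it.

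As levels over the 9 libraries, the order in cpm was *Irak1* (108), *Il1rap* (57.9), *Traf6* (26.7), *Myd88* (17.8), *Irak4* (15.9), *Il1r1* (10.7), *Tlr2* (4.27), *Tlr4* (3.48), *Nlrp3* (1.33) and *Il1b* (0.46). *Irak1* exceeded *Il1rap*, and *Il1rap* exceeded *Traf6*, in all 9 libraries without overlap of their ranges. Below these, the ranges of all neighbours overlapped. *Traf6* was above *Myd88* in 8 of 9 libraries and *Myd88* above *Irak4* in 7 of 9, whereas *Tlr2* was above *Tlr4* in 4 of 9 and equal in 1. *Irak1* was thus above the ligand and all 4 receptor genes, and *Traf6* lay below *Il1rap*. Several of these genes, *Myd88* and *Irak4* among them, overlap other annotated genes as given above. Whether this affected the order was not tested.

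For the 4 genes with at least 10 counts in every library, the other genes most like them were found among 11167 by Pearson's r of log2(cpm + 1) over the 9 libraries, as a description. *Il1rap* was most like *Cd47*, *Ube2g1* and *Rrs1* (r of 0.97, 0.96 and 0.94), and *Irak1* most like *Ckb*, *Sec23a* and *mt-Cytb* (0.93, 0.92 and 0.92). *Irak4* was most like *Uaca*, *Atxn7l1* and *Tfpi* (0.94, 0.93 and 0.92), and *Traf6* most like *Apc*, *Erc1* and *Pdhb* (0.91, 0.89 and 0.89). Among the 4 themselves, r ran from −0.82 between *Il1rap* and *Irak4* to 0.51 between *Irak1* and *Traf6*.

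The rest of the pathway was followed in 6 lists with 122 further genes. Of the 122, 114 had a count in some library, 85 passed the filter, and 42 were at or under 3 counts in every library. Below, the highest and lowest log2 fold changes of a list are those among genes at a mean of at least 5 cpm. Relative to DJ-1+/+ mice, 45 of the 85 were higher and 40 lower, and their median log2 fold change was 0.02. The numbers include 5 genes at or under the floor in every library, and without these 44 were higher and 36 lower, with the same median of 0.02. With edgeR, 1 higher and 1 lower gene had an unadjusted p under 0.05, against 2.83% of all genes tested, and 0 had an adjusted one.

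Among 18 IL-1 family ligands, receptors and decoys, 9 passed the filter, 5 higher and 4 lower, with a median log2 fold change of 0.09. The most abundant was *Il33*, an alarmin stored in the nucleus, at 109 cpm, with a log2 fold change of 0.09 (standard error 0.11) that was −0.01 without DJ-1+/+ replicate 4. *Il1rapl2* and *Il1rapl1* are brain-expressed IL-1 receptor-like genes. At a mean of at least 5 cpm, *Il1rapl2* had the highest log2 fold change of the list, 0.26, and *Il1rapl1* the lowest, −0.19. Without DJ-1+/+ replicate 4 these were 0.06 and 0.02, and without DJ-1+/+ replicate 3 they were 0.53 and −0.30. *Il1a*, the other IL-1 agonist, had at most 2 counts in any library.

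*Il1rn*, which encodes the receptor antagonist that blocks IL-1, had 1, 0, 1 and 11 counts in DJ-1+/+ and 0 in every DJ-1-/- library. DJ-1+/+ replicate 4 thus held 11 of the 13 counts. Its unadjusted p was 0.00902 in edgeR's test, 0.0809 in DESeq2's and 0.0952 in the exact permutation test of the cpm. Taken against the mean floor of the DJ-1-/- libraries, 2.97 cpm, the DJ-1+/+ mean of 3.69 cpm made *Il1rn* at least 1.24-fold lower in DJ-1-/- mice, and with *Il1rn* at that bound the median of the list was still 0.09. Without replicate 4 the DJ-1+/+ mean was 0.784 cpm, under the floor, and the gene could not be tested. The same library held the highest choroid plexus sum, whose part in this result was not tested.

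Among 19 Toll-like receptors and co-receptors, 14 passed, 9 higher and 5 lower. The median log2 fold change was 0.05, and edgeR gave none an unadjusted p under 0.05. *Tlr3*, which senses double-stranded RNA, was the best detected Toll-like receptor gene, averaging 41.3 ± 9.99 cpm over the DJ-1+/+ mice (SD, n = 4) against 41.6 ± 4.5 cpm over the DJ-1-/- mice (SD, n = 5), and *Tlr8* and *Tlr9* had 0 counts. *Hsp90b1*, a chaperone that Toll-like receptors need to fold, was the most abundant of the list at 199 cpm.

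*Unc93b1*, which carries nucleic acid-sensing receptors to endosomes, had the highest log2 fold change, 0.48 (standard error 0.23). It was at 20.2, 13.6, 15.1 and 20.3 cpm in DJ-1+/+ and 29.0, 27.3, 24.8, 18.6 and 21.4 cpm in DJ-1-/- mice, where only DJ-1-/- replicate 4 reached into the DJ-1+/+ range. Its unadjusted p in edgeR's test was 0.0529. Without DJ-1-/- replicate 4 it was 0.0323, without DJ-1+/+ replicate 1 it was 0.0436 and without DJ-1+/+ replicate 4 it was 0.0437, with log2 fold changes of 0.55, 0.56 and 0.57. With each of the other 6 libraries left out it was between 0.0548 and 0.142, the highest without DJ-1+/+ replicate 2 at a log2 fold change of 0.38, and in DESeq2 it was 0.112. Among libraries with at least 10 *Xist* counts the log2 fold change was 0.79 (0.0267 for the unadjusted p). Without both DJ-1+/+ replicates 1 and 4 it was 0.75 (0.0252), and with *Xist* as a covariate it was 0.55 (0.0458). Both subsets leave out DJ-1+/+ replicates 1 and 4 and differ only in DJ-1-/- replicate 5, so they are not separate evidence. The exact permutation test of the cpm over all libraries gave p = 0.0635.

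*Lbp*, for lipopolysaccharide-binding protein, had the lowest log2 fold change, −0.76. It was at 14.3, 11.4, 11.6 and 41.8 cpm in DJ-1+/+ and 13.01, 10.9, 20.6, 7.23 and 6.82 cpm in DJ-1-/- mice, and DJ-1+/+ replicate 4 stood far above the rest. Without that library the value was −0.09. Its unadjusted p in edgeR's test, 0.0940, fell to 0.0335 without DJ-1-/- replicate 3, to 0.0452 without DJ-1+/+ replicate 2 and to 0.0480 without DJ-1+/+ replicate 3, with log2 fold changes of −1.05, −0.96 and −0.95. Without a filter on low counts it was 0.0300 (−0.75), and among libraries with at least 10 *Xist* counts the log2 fold change was 0.16.

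**Figure D3:**
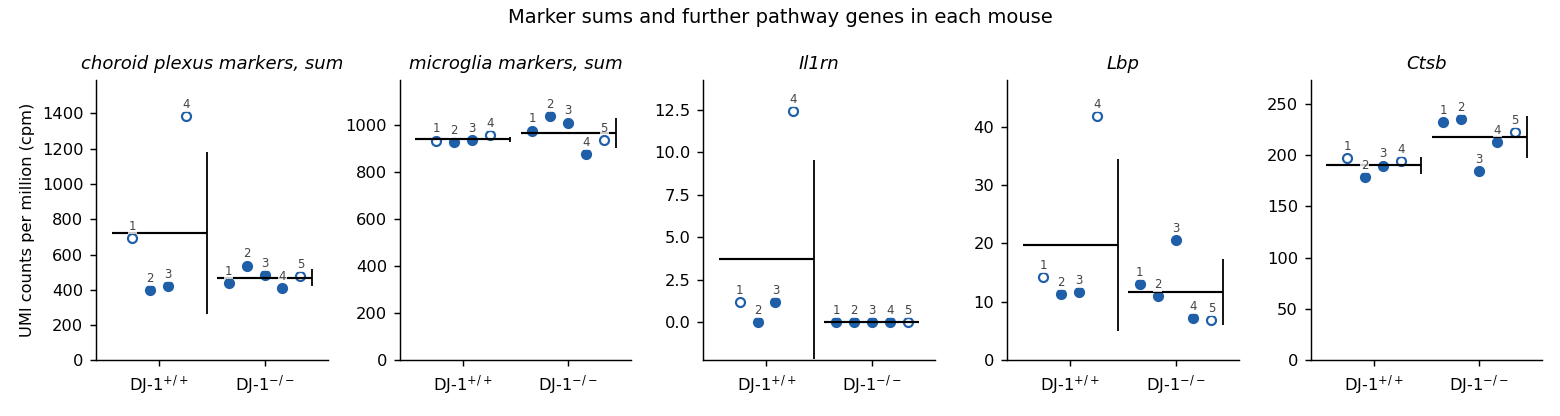
Summed level of 14 choroid plexus and 16 microglia markers, and levels of *Il1rn*, *Lbp* and *Ctsb*, in cpm (vertical axes) in 4 DJ-1+/+ and 5 DJ-1-/- mice. Points are mice with their replicate numbers, filled where *Xist* had at least 10 counts; horizontal lines are means and vertical lines ± 1 SD. DJ-1+/+ replicate 4 is the highest library in the choroid plexus, *Il1rn* and *Lbp* panels, at 1384, 12.4 and 41.8 cpm.

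Of 25 further adaptors, kinases and ubiquitin ligases, 24 passed the filter, 14 higher and 10 lower. Their median log2 fold change was 0.02, and again none had an unadjusted p under 0.05. The ubiquitin-conjugating enzyme gene *Ube2n*, whose product works with TRAF6, was the most abundant at 127 cpm, with a log2 fold change of 0.02. The extremes were *Tirap*, the adaptor that brings MYD88 to TLR2 and TLR4, at 0.30, and *Tab1*, a partner of the kinase TAK1, at −0.23. They were 0.17 without DJ-1+/+ replicate 4 and −0.10 without DJ-1+/+ replicate 3, respectively. Among libraries with at least 10 *Xist* counts *Tirap* was at −0.01. *Ticam2* had 2, 5, 2 and 2 counts in DJ-1+/+ and 1, 1, 2, 2 and 1 counts in DJ-1-/- mice. The genotypes met at 2 counts and lay apart in cpm, where the same count is a lower level in a deeper library. Both group means were under the floor and no fold change is given.

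Of 14 pathway inhibitors, 13 passed, 5 higher and 8 lower. Their log2 fold changes had a median of −0.05, and none reached an unadjusted p under 0.05. *Cyld*, a deubiquitinase, was the most abundant at 137 cpm, and *Nlrx1* had the highest log2 fold change, 0.42, which was 0.18 without DJ-1+/+ replicate 2 and 0.21 without DJ-1-/- replicate 1 but 0.91 among libraries with at least 10 *Xist* counts and 0.74 without both DJ-1+/+ replicates 1 and 4. *Trim30a*, which restrains TAB proteins downstream of TRAF6, was at 22.6, 25.0, 26.8 and 24.8 cpm in DJ-1+/+ and 15.0, 21.9, 21.7, 17.6 and 18.5 cpm in DJ-1-/- mice. Every DJ-1+/+ mouse was above every DJ-1-/- mouse. The fitted log2 difference was −0.39 (standard error 0.21, unadjusted p = 0.0789 in edgeR's test). In cpm, *Trim30a* and *Ticam2* were the 2 of the 85 without overlap, where 1.25% of all genes tested had none. In counts both overlapped.

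Among 19 genes of the inflammasome and IL-1β processing, 14 passed, 7 higher and 7 lower, with a median of 0.03. *Ctsb*, the lysosomal protease cathepsin B, was the most abundant, at 197, 178, 190 and 194 cpm in DJ-1+/+ and 232, 235, 185, 213 and 222 cpm in DJ-1-/- mice. All DJ-1-/- mice but replicate 3 were above the DJ-1+/+ range. The log2 fold change was 0.20 (standard error 0.08), with an unadjusted p of 0.0252 in edgeR's test, an adjusted p of 1.0, and 0.0635 in the exact permutation test of the cpm.

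Leaving out single libraries took the unadjusted p of *Ctsb* to between 0.00283 and 0.0831, and it was above 0.05 without DJ-1+/+ replicate 2 (0.16) or 3 (0.19) and without DJ-1-/- replicate 1 (0.17) or 2 (0.17), with the log2 fold change in brackets. In DESeq2 it was 0.0524 (0.19), under the replicate block 0.0501 (0.18), and among libraries with at least 10 *Xist* counts 0.0626 (0.23). The part of the microglia sums in this value was not tested. *Pycard*, which encodes the inflammasome adaptor ASC, had the highest log2 fold change, 0.81 (standard error 0.44), with 2 to 6 counts in DJ-1+/+ and 5 to 11 in DJ-1-/- mice. Its unadjusted p was 0.0879, and 0.0410 without DJ-1+/+ replicate 3 (log2 fold change 1.12) but 0.224 without DJ-1+/+ replicate 4 (0.60). *Txnip*, whose product binds NLRP3, had the lowest at a mean of at least 5 cpm, −0.12, and was 0.29 without DJ-1+/+ replicate 1.

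Most outputs of the pathway were at or under the floor. Of 27 target genes 25 had a count, 17 were at or under 3 counts in every library and 11 passed the filter, 5 higher and 6 lower. Their median log2 fold change was −0.09, and edgeR's test called none at the unadjusted threshold. Over all 9 libraries *Tnf* had 1 count, *Il6* 2, *Ccl2* 1 and *Cxcl1* 4, and *Saa3* and *Csf3* had 0. *Sod2*, the mitochondrial superoxide dismutase, was the most abundant at 145 cpm. Among genes at a mean of at least 5 cpm it had the highest log2 fold change, 0.12 (standard error 0.08), which was 0.06 without DJ-1+/+ replicate 2. *Csf1*, the microglial growth factor, had the lowest, −0.37 (standard error 0.20, unadjusted p = 0.0788), with unadjusted p-values of 0.0195 and 0.04996 without DJ-1-/- replicate 1 or DJ-1+/+ replicate 4 and log2 fold changes of −0.51 and −0.45. Without DJ-1+/+ replicate 3 the log2 fold change was −0.24 and the unadjusted p 0.266, with *Xist* as a covariate they were −0.46 and 0.0369, and without a filter on low counts −0.36 and 0.0398.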

How the data were processed

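The authors deposited a UMI count per gene and mouse, listed by Ensembl identifier, in whole numbers and without normalization. The submitters' processing notes name fastp 0.20.0, STAR 2.7.3a, UMI-tools 1.0.0, Subread featureCounts 2.0.0 and GRCm38, without the strand setting or the annotation release. Counts were joined by identifier, and 26576 of the 26602 genes with a count were in GENCODE M21, the source of symbols and positions.

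The genes that reached 10 counts summed over the 9 libraries were tested with edgeR 4.0.16 in R 4.3.3 (TMM, estimateDisp, glmQLFit, glmQLFTest, genotype as the only term), with Benjamini-Hochberg adjustment over all genes tested. The standard error was the size of the log2 fold change divided by the square root of F. Single values in cpm were compared with exact two-sided permutation tests over 126 arrangements in scipy 1.17.1. A coefficient of variation from counting alone was computed from the mean count as for a Poisson variable. The scripts were tested on simulated data.

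The 10 genes, the lists and the marker genes were chosen with earlier results of these data known. All 10 genes were named, with *Park7*. From each further list were named every gene with an unadjusted p under 0.05, the most abundant gene, and the highest and lowest log2 fold change at a mean of at least 5 cpm. From genes with at least 10 counts in every library, the 3 most like a member were named. *Th*, *Il1a*, *Tlr3*, *Tlr8*, *Tlr9*, *Ticam2*, *Tnf*, *Il6*, *Ccl2*, *Cxcl1*, *Saa3* and *Csf3* were picked after their values were seen. The current symbols of the IL-36 genes, and *Il37*, are not in that annotation, which lists the IL-36 genes under older names. The lists of pericytes and fibroblasts, astrocytes, oligodendrocytes and neurons had medians of −0.03, −0.02, −0.01 and −0.01 on the log2 scale.

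The alternatives were DESeq2 1.42.0, RLE size factors, library totals, no filter on low counts, at least 10 counts in 4 libraries, *Xist* as a covariate, libraries with at least 10 *Xist* counts, the replicate number as a block, counts thinned to 841974, DJ-1+/+ replicates 1 and 4 left out together, and each library left out in turn.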

Additional observations from a re-analysis of the deposited data

Results flagged for a closer look

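Within a genotype, 80 groups of values (the 10 genes, *Park7*, the 18 further genes named by rule and 11 marker sums, each in 1 genotype) were searched for a library far from the others by Dixon's test. A library was singled out in 5 of them, where chance singles out about 1 in 20, or 4. *Irak1* in DJ-1-/- replicate 1 was at 115 cpm, above the other 4 DJ-1-/- mice and inside the DJ-1+/+ range. *Il1b* in DJ-1+/+ replicate 3 was at 1.16 cpm, which is 1 count against 0 in the other 3. Such a group is always singled out, and *Il1rn* in DJ-1-/- mice, at 0 throughout, could not be, so the 4 by chance is only a rough guide. *Il1rn* and *Lbp* in DJ-1+/+ replicate 4 were at 12.4 and 41.8 cpm, far above the other DJ-1+/+ mice, in the library with the highest choroid plexus sum. *Nlrx1* in DJ-1+/+ replicate 2 was at 3.41 cpm, below the other 3. A cause was not tested for any of these.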

How the results depend on the processing

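At the unadjusted threshold of 0.05 edgeR called 513 genes. DESeq2 gave 235 and edgeR without a filter on low counts 802, and leaving out each library in turn gave 338 to 732. The count with an adjusted p under 0.05 was 1, and it was 3 among libraries with at least 10 *Xist* counts, 36 without the filter, and 1 to 2 with each library left out. The replicate block gave 8 genes with an adjusted p under 0.05 and 571 with an unadjusted one. Same-numbered mice did not clearly deviate together (r from −0.20 to 0.29 over 4 pairs). This gave no sign that the numbers pair the mice, but so few pairs cannot exclude it. The 1 member with an unadjusted p under 0.05 became 0 in DESeq2, with *Xist* as a covariate, among libraries with at least 10 *Xist* counts and without DJ-1+/+ replicates 1 and 4, and 0 to 2 with each library left out. Fewer libraries were tested in the last 3 of these, and the cause was not tested for any of them. The libraries with at least 10 *Xist* counts also lack DJ-1+/+ replicates 1 and 4, so these 2 settings share their DJ-1+/+ mice. Across 19 alternatives the log2 fold change of *Irak1* stayed below 0, from −0.29 to −0.15, with an unadjusted p under 0.05 in 13.

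The signs below changed, and the cause was not tested. With *Xist* as a covariate the log2 fold change was 0.15 for *Il1rap*, 0.026 for *Hsp90b1*, −0.012 for *Ube2n* and 0.15 for *Txnip*. Among libraries with at least 10 *Xist* counts it was 0.024 for *Il1r1*, 0.13 for *Il1rap*, −0.12 for *Il1rapl2*, 0.063 for *Hsp90b1*, 0.16 for *Lbp*, −0.050 for *Ube2n*, −0.0053 for *Tirap* and 0.47 for *Txnip*. Without DJ-1+/+ replicates 1 and 4 it was 0.24 for *Il1rap*, −0.043 for *Il1rapl2*, 0.023 for *Il1rapl1*, 0.062 for *Hsp90b1*, 0.023 for *Lbp*, −0.056 for *Ube2n* and 0.47 for *Txnip*. *Hsp90b1* was 0.0070 without the filter and 0.027 with thinned counts, and *Irak4* was 0.070 under the replicate block. With each library left out in turn the range was −0.27 to 0.051 for *Il1r1*, −0.22 to 0.062 for *Il1rap*, −0.17 to 0.30 for *Irak4*, −0.0082 to 0.19 for *Il33*, −0.30 to 0.015 for *Il1rapl1*, −0.071 to 0.030 for *Hsp90b1*, −0.014 to 0.067 for *Ube2n*, −0.34 to 0.29 for *Txnip* and −0.063 to 0.59 cpm for the difference in *Il1b*. *Il1rn* could not be fitted where too few counts were left, and *Tlr2*, *Tlr4*, *Nlrx1* and *Pycard* did not pass the filter of 10 counts in 4 libraries. At this depth, *Il1b*, *Nlrp3* and most target genes cannot be compared.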
